A study of Homo sapiens with 5 samples.

Results

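The 10 genes described here, CA12, NRIP1, SIAH2, TPBG, PRSS23, ADCY9, RARA, CTSD, IGFBP4 and PDZK1, are known as targets that estrogen induces, mostly from work on breast cancer cells. They were taken by symbol from a table of 58174 genes, and each had 1 row. The study measured RNA in 5 libraries of Ishikawa cells, an established line from a human endometrial carcinoma, grown in RPMI 1640 with 10% fetal bovine serum. In 3 libraries (sh-LINC00958) a lentivirus delivered a short hairpin RNA against the long non-coding RNA LINC00958, and in 2 (sh-NC) it delivered a negative control hairpin. Puromycin at 2.5 µg/ml, started 72 h after infection, selected the infected cells. The labels name no estrogen or antiestrogen for any group, and say neither how many hairpins were used nor whether each library had its own culture. The p-values therefore measure only the spread between these libraries, which may be technical.

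Estrogen acts mainly through the nuclear receptor ESR1, which binds DNA directly at estrogen response elements or is held at other sites by partner factors. There it recruits coactivators or corepressors to nearby genes. In the endometrium this program drives epithelial growth, and PGR, the progesterone receptor, is its best known marker there. The members sit at different points of that program. NRIP1 and RARA are nuclear regulators, SIAH2 tags proteins for degradation, ADCY9, CA12, TPBG and PDZK1 act at the cell membrane, and CTSD, PRSS23 and IGFBP4 are lysosomal or secreted proteins.

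Levels are given in TPM, which scales the reads of a gene by its length and by the library total and so allows comparison between genes. Every library sums to about 1000000 and the sequencing depth is unknown. Changes are differences in mean log2(TPM + 1), sh-LINC00958 minus sh-NC, fitted with limma over the 17049 genes that averaged at least 1 TPM, and a gene was called at a Benjamini-Hochberg adjusted p under 0.05 over all of them. In bulk RNA, a change in the number of cells that express a gene and a change in RNA per cell cannot be told apart. LINC00958 measured 67.2, 67.1 and 58.4 TPM in sh-LINC00958 against 119 and 137 TPM in sh-NC, and was called lower (log2 fold change -0.99, limma adjusted p = 0.0119); the call was lost without sh-LINC00958 replicate 1 (adjusted p = 0.0545), sh-NC replicate 1 (adjusted p = 0.0672) or sh-NC replicate 2 (adjusted p = 0.0874). Libraries had 27896 to 29411 genes above 0. Of 10 endometrial epithelial markers, 10 averaged at least 1 TPM, and they summed to 2755 to 2927 TPM in sh-LINC00958 and 2806 to 2810 TPM in sh-NC. The like sums hold moves in both directions. KRT18 was called higher (log2 fold change 0.44) and EMX2 lower (-0.76), a share of 20% beside 9.80% of all genes tested. Groups did not overlap for 3 markers that were higher and 4 that were lower, beside 24.4% and 25.5% of all genes. The sums over 6 fibroblast, 6 blood cell and 5 endothelial markers stayed under 7 TPM in all libraries, with DCN, CD3E, HBB and KDR listed at 0, and 5 breast luminal markers summed to at most 1.22 TPM.

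The receptor through which estrogen is best known to act was at or near 0 in these libraries. ESR1 was listed at 0 TPM in 4 of the 5 libraries and at 0.0149 TPM in sh-LINC00958 replicate 3. PGR was listed at 0 in all 3 sh-LINC00958 libraries and in sh-NC replicate 1, and at 0.0264 TPM in sh-NC replicate 2. ESR2, the second estrogen receptor, measured 0.827, 1.57 and 1.58 TPM against 1.59 and 0.488 TPM, so its groups overlapped (log2 fold change 0.23, limma adjusted p = 0.657). GPER1, a membrane receptor that responds to estrogen, measured 0.722, 0.629 and 0.727 TPM against 0.555 and 0.786 TPM. TFF1, a classical marker of estrogen action in breast cells, and CXCL12, both named after their values were seen, were listed at 0 in every library. The response of the members to estrogen itself was not tested.

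To show the regulatory sequence near the members, the 250 bases before each annotated start were read from the RefSeq promoter table (GRCh38.p14), which held 17 windows for 9 of the 10 genes. ADCY9 is missing there. The windows were searched on both strands for 1 arm of the palindromic estrogen response element, a half-site (GGTCA, or TGACC on the other strand). Half-sites were found in 8 of 17 windows (47.1%), against 32.6% of all 35116 promoters of that length, and the windows belonged to 7 members. The windows of PDZK1 overlap and hold the same half-site, which is counted in each. The difference from the share of all promoters was not tested. The full palindrome of GGTCA, any 3 bases and TGACC was in 0 of the 17 windows and in 0.0399% of all promoters. GC boxes (GGGCGG or CCGCCC), letters that SP1 is known to bind, were in 12 windows (70.6%, against 42.6% of all). The GC content of the 17 windows ran from 47.6% to 80.8% with a median of 64.4%, beside a median of 58% over all promoters. The differences in GC boxes and in GC content were not tested either. The stretches below show the half-site in capitals within 25 bases, read 5′ to 3′ on the strand of the gene. They carry the only response element letters found in these windows, and sequence outside the windows was not searched.
CA12, minus strand, chr15:63382028-63382052, 196 bases before the start: tgtgttcctgGGTCAgccctggccc
NRIP1, minus strand, chr21:15065156-15065180, 170 bases before the start: ggcttcctccTGACCgggtgacaat
TPBG, plus strand, chr6:82362953-82362977, 20 bases before the start: ttctctcccaGGTCAgctcctgcaa
PRSS23, plus strand, chr11:86791041-86791065, 20 bases before the start: catcccagtgTGACCttcattgcct
RARA, plus strand, chr17:40308941-40308965, 229 bases before the start: tcctgtttcaGGTCAtcctatcctc
RARA, plus strand, chr17:40309011-40309035, 159 bases before the start: ccccagccgaTGACCagacgcccat
RARA, plus strand, chr17:40309078-40309102, 92 bases before the start: ctgcgcccgcTGACCcagtcggggc
CTSD, minus strand, chr11:1764108-1764132, 195 bases before the start: tgggccgggcTGACCccgcgggcgc
CTSD, minus strand, chr11:1763956-1763980, 43 bases before the start: cgcgcccacgTGACCggtccgggtg
CTSD, minus strand, chr11:1763931-1763955, 18 bases before the start: caaacacgcgGGTCAgctgatccgg
PDZK1, minus strand, chr1:145707454-145707478, 68 bases before one start and 100 before another: gcaggacagaGGTCActtgaattca
RARA and CTSD held 3 half-sites each in a single window. Neither window of SIAH2 or IGFBP4, 1 for each gene, held one. The starts are those of RefSeq. For the half-site windows of TPBG and RARA, 0 transcripts of GENCODE release 29 held the 50 bases after the start. For those of the other members at least 1 did. A match gives only the letters, and binding of a receptor was not measured here.

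For RARA and IGFBP4, which lie within the same stretch of chromosome 17 and were measured at very different levels, a whole window is shown. Both windows cover no exon annotated in GENCODE release 29. Capitals mark the half-sites of RARA, and the window of IGFBP4 has none. The RARA windows at chr17:40317995-40318244 and chr17:40341916-40342165, not shown, also have none. A link between half-sites and level was not tested.
RARA, plus strand, chr17:40308930-40309179: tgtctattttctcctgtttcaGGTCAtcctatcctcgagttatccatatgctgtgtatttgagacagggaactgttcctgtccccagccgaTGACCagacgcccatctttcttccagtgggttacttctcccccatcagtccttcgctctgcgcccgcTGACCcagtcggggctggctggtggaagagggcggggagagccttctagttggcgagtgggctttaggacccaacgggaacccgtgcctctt
IGFBP4, plus strand, chr17:40443200-40443449: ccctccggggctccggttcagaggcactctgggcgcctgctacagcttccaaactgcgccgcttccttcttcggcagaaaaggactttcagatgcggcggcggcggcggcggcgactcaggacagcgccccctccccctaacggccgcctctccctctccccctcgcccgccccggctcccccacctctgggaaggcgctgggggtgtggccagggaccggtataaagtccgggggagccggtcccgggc

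The 10 genes spanned a wide range of levels. In sh-NC the order of mean TPM was CTSD (162), CA12 (109), SIAH2 (27.4), ADCY9 (19.6), TPBG (17.5), PRSS23 (13.2), RARA (12.1), NRIP1 (10.6), PDZK1 (1.58) and IGFBP4 (0.123). CTSD exceeded CA12, CA12 exceeded SIAH2 and SIAH2 exceeded ADCY9 in 5 of 5 libraries. The middle of the order was less clear. ADCY9 exceeded TPBG in 4 of 5 libraries, TPBG exceeded PRSS23 in 3 of 5 and PRSS23 exceeded RARA in 4 of 5. By mean level over all 5 libraries CTSD stood above 94.6% of the tested genes, CA12 above 92.6% and PDZK1 above 11.4%.

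**Figure D1:**
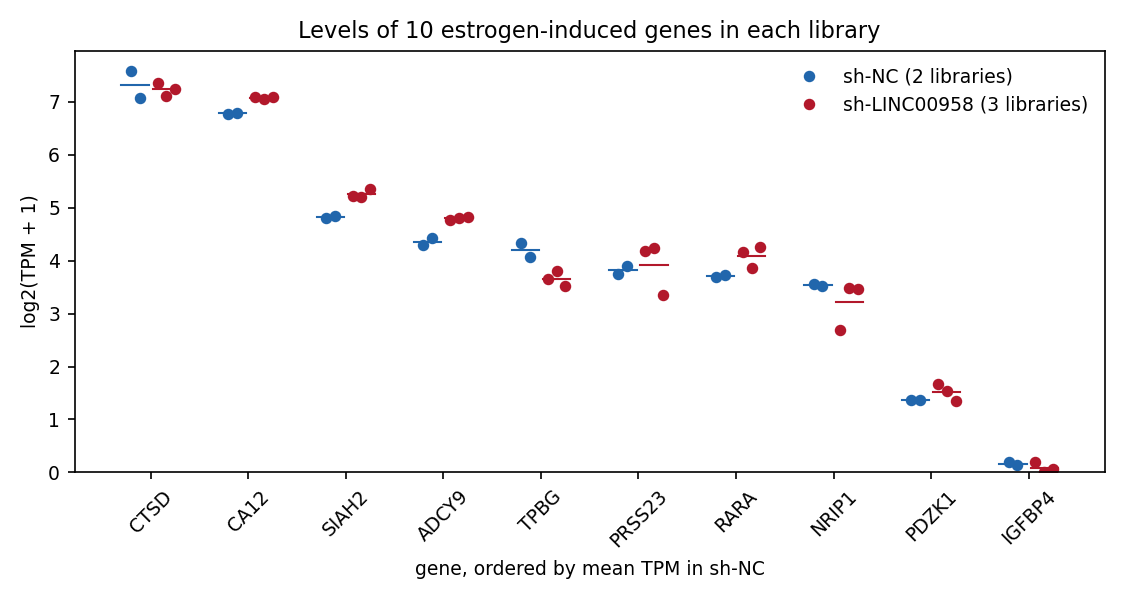
Each point is 1 library, plotted as log2(TPM + 1) for the 10 genes in order of their mean TPM in sh-NC; blue points are the 2 sh-NC libraries, red points the 3 sh-LINC00958 libraries, and lines the group means. The red points of ADCY9, SIAH2, CA12 and RARA lie above the blue ones, those of TPBG and NRIP1 lie below, and the groups of the other 4 genes overlap.

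Of the 9 members tested, 2 were called higher in sh-LINC00958, 0 were called lower and 7 were not called. Over all genes tested, 4.12% were called higher and 5.68% lower. The median log2 fold change of the 9 was 0.15, with single values from -0.55 to 0.44, beside 0.0014 over all genes tested. At an unadjusted limma p under 0.05 there were 5 of the 9 members, beside 5230 of the 17049 genes tested. Groups did not overlap for 6 of the 9, with 4 higher and 2 lower in sh-LINC00958, beside 24.4% and 25.5% of all genes. IGFBP4 averaged under 1 TPM and was not tested.

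SIAH2 and ADCY9 rose, to 137% and 138% of their control means. SIAH2 (ENSG00000181788, chromosome 3, 150741127 to 150763477, minus strand) encodes a RING ubiquitin ligase that marks proteins for the proteasome. It measured 36.6, 36.1 and 39.8 TPM in sh-LINC00958 and 27.0 and 27.8 TPM in sh-NC. All 3 silenced libraries lay above both controls, with means of 37.5 ± 2.01 (SD, n = 3) and 27.4 ± 0.559 TPM (SD, n = 2). The SIAH2 log2 fold change was 0.44 (SE 0.0901, 95% interval 0.21 to 0.66, limma adjusted p = 0.0400). SIAH2-AS1, annotated on the opposite strand inside SIAH2, was listed at 0 in 4 libraries and at 0.392 TPM in sh-LINC00958 replicate 3.

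ADCY9 (ENSG00000162104, chromosome 16, 3953387 to 4116185, minus strand) encodes an adenylyl cyclase of the plasma membrane, which makes cyclic AMP. It measured 26.4, 27.0 and 27.3 TPM in sh-LINC00958 and 18.7 and 20.5 TPM in sh-NC. The silenced libraries lay close together and above both controls, with means of 26.9 ± 0.469 (SD, n = 3) and 19.6 ± 1.304 TPM (SD, n = 2). Its log2 fold change was 0.44 (SE 0.0932, 95% interval 0.21 to 0.67, limma adjusted p = 0.0418). Both calls lay just inside the threshold. Of 16 alternative fits, SIAH2 was called in 7 and ADCY9 in 6. With 1 library left out at a time, ADCY9 was called in 0 of 5 fits (log2 fold change 0.38 to 0.51), and SIAH2 in 1 of 5 (0.39 to 0.46), that without sh-LINC00958 replicate 2.

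CA12 and RARA also had groups that did not overlap, but did not pass the test. CA12 (chromosome 15, 63321378 to 63382161, minus strand) encodes a membrane carbonic anhydrase that acts on the outer face of the cell. It measured 135, 131 and 135 TPM against 108.2 and 110.2 TPM, so the 2 groups were tight and apart. Its log2 fold change was 0.29 (95% interval 0.13 to 0.46) and the limma adjusted p, 0.0514, lay just outside the threshold. CA12 was called in 6 of 16 alternative fits, with a log2 fold change of 0.23 to 0.31 over all 16. RARA (chromosome 17, 40309192 to 40357643, plus strand) encodes retinoic acid receptor alpha, a nuclear receptor. It measured 16.9, 13.6 and 18.2 TPM against 11.8 and 12.3 TPM, with sh-LINC00958 replicate 2 nearest the controls. The RARA log2 fold change was 0.39 (limma adjusted p = 0.138, 95% interval 0.03 to 0.75), and 0.50 with an adjusted p of 0.0453 without sh-LINC00958 replicate 2.

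TPBG had the lowest log2 fold change of the 9. TPBG (ENSG00000146242, chromosome 6, 82363206 to 82370828, plus strand) encodes the oncofetal membrane glycoprotein 5T4. It measured 11.5, 12.9 and 10.4 TPM in sh-LINC00958 against 19.1 and 15.9 TPM in sh-NC, and the groups did not overlap. The silenced mean was 66.5% of the control mean. The log2 fold change was -0.55 (SE 0.139, 95% interval -0.89 to -0.21), and the limma adjusted p of 0.0624 missed the threshold. TPBG was called in 0 of 16 alternative fits, in which its log2 fold change lay between -0.68 and -0.42.

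NRIP1 (chromosome 21, 14961235 to 15065936, minus strand) encodes RIP140, a corepressor that binds ligand-activated nuclear receptors, estrogen receptors among them. It measured 5.45, 10.2 and 10.1 TPM against 10.8 and 10.5 TPM. One silenced library, replicate 1, was low, and the other two lay just under the controls. The log2 fold change was -0.32 (limma adjusted p = 0.452, 95% interval -0.97 to 0.32), and -0.06 without sh-LINC00958 replicate 1.

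CTSD and PRSS23, both protease genes, had overlapping groups. CTSD (chromosome 11, 1752752 to 1764573, minus strand) encodes the lysosomal aspartic protease cathepsin D and was the most abundant member. It measured 163, 138 and 151 TPM in sh-LINC00958, all between the controls at 191 and 133 TPM. Its log2 fold change was -0.09 (limma adjusted p = 0.747, 95% interval -0.49 to 0.31), and its sign changed with the control library left out, to 0.17 without replicate 1 of sh-NC, and it was -0.35 when replicate 2 was dropped instead. AC068580.4, annotated on the same strand and overlapping CTSD, rose from 7.91 ± 0.217 (SD, n = 2) to 15.4 ± 3.52 TPM (SD, n = 3), with a limma adjusted p of 0.0445. When each library's trend with transcript GC content and exon length was taken out, AC068580.4 was not called (log2 fold change 0.67, adjusted p = 0.0959). How reads in the shared stretch were divided between these genes is not given in the sources used here, so both values are uncertain. PRSS23 (chromosome 11, 86791059 to 86952910, plus strand), which encodes a secreted serine protease, measured 17.2, 18.0 and 9.19 TPM against 12.5 and 14.01 TPM. The silenced libraries lay on both sides of the controls (log2 fold change 0.10, limma adjusted p = 0.848, 95% interval -0.60 to 0.80). Without sh-LINC00958 replicate 3 the PRSS23 value was 0.39, and it was -0.06 without replicate 2. FZD4 overlaps PRSS23 on the opposite strand and measured 4.78 ± 0.236 against 5.71 ± 0.0659 TPM (SD, n = 3 and 2); the strand setting of the libraries is not given in the sources used here.

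The remaining pair was low. PDZK1 (chromosome 1, 145670852 to 145708148, minus strand) encodes a scaffold protein with PDZ domains that holds transporters at the membrane. It measured 2.20, 1.90 and 1.55 TPM against 1.58 and 1.59 TPM, and the groups overlapped (log2 fold change 0.15, limma adjusted p = 0.589, 95% interval -0.27 to 0.57). The pseudogene PDZK1P1 measured 0.217, 0.948 and 0.383 TPM against 0.103 and 0 TPM, and reads shared between such copies make both values uncertain. IGFBP4 (chromosome 17, 40443461 to 40457731, plus strand) encodes a secreted protein that binds insulin-like growth factors. It was listed at 0.145, 0 and 0.0435 TPM against 0.147 and 0.0995 TPM, so every library lay far under the 1 TPM filter.

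**Figure D2:**
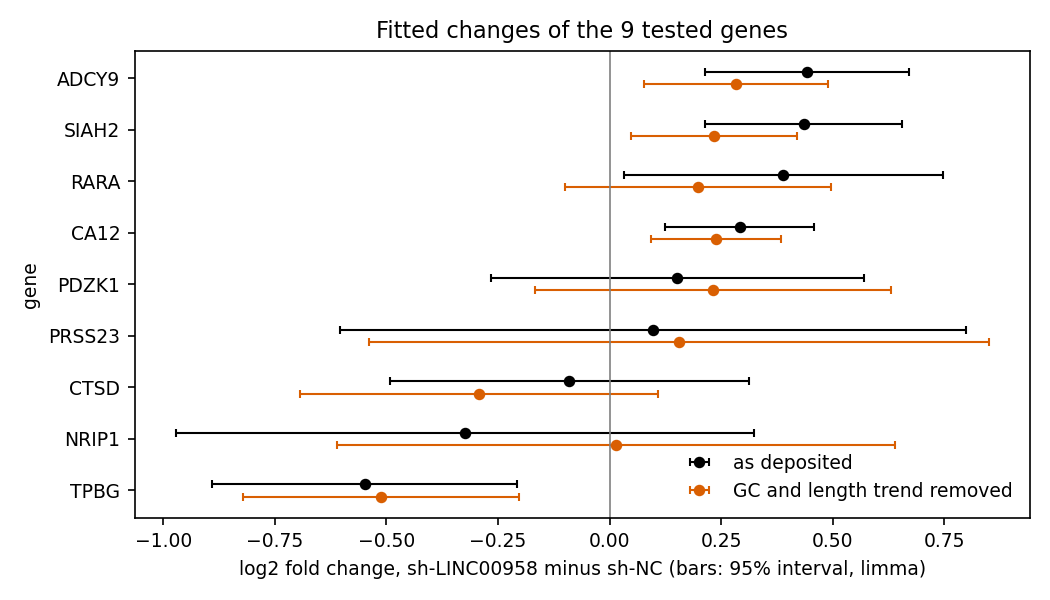
Points are fitted log2 fold changes of the 9 tested genes on the log2(TPM + 1) scale with 95% limma intervals, as deposited (black) and after each library's trend with transcript GC content and exon length was removed (orange). ADCY9 and SIAH2, at 0.44 each, move to 0.28 and 0.23 after the removal, NRIP1 moves from -0.32 to 0.01, and TPBG moves from -0.55 to -0.51.

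The fold changes of the whole table moved with the transcript GC content of the genes. Over all tested genes put in 4 bins of like size by GC content, the median log2 fold change was -0.29 in the lowest bin (23.1% to 43.0% GC) and 0.18 in the highest (56.4% to 86.4%). SIAH2 (59.0% GC), RARA (62.5%) and CTSD (63.4%) lay in the highest bin, where 8.49% of genes were called higher and 0.729% lower. ADCY9 (56.3%) and CA12 (50.5%) lay in the next, where 4.92% were called higher. NRIP1 (38.9%) lay in the lowest bin, where 1.01% were called higher and 15.8% lower. TPBG (46.3%), PRSS23 (45.2%) and PDZK1 (44.4%) lay in the second bin, with a median of -0.06. TPBG, CTSD and NRIP1 thus had log2 fold changes under the medians of their bins, and the other 6 tested members had values above them.

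Once the trend with GC content and length was removed from each library, 0 of the 9 members were called by limma, beside 359 higher and 412 lower calls over 16999 genes. ADCY9 had a log2 fold change of 0.28 (adjusted p = 0.117), SIAH2 of 0.23 (adjusted p = 0.137), CA12 of 0.24 (adjusted p = 0.0843) and TPBG of -0.51 (adjusted p = 0.0818). NRIP1 went from -0.32 to 0.01, and CTSD from -0.09 to -0.29. The median of the 9 was 0.20 after the removal, beside -0.02 over all genes. The part of GC content in the result was not tested.

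**Figure D3:**
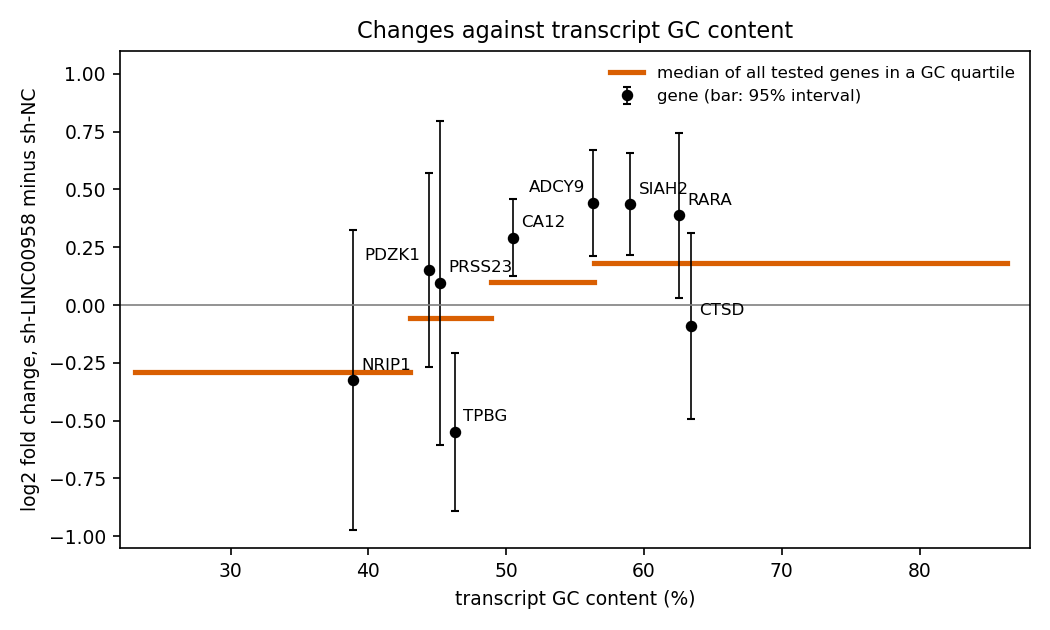
Points are the log2 fold changes of the 9 tested genes against the GC content of their transcripts, with 95% limma intervals, and orange lines are the medians of all tested genes in each quartile of GC content. The orange medians climb from -0.29 to 0.18, and ADCY9, SIAH2, RARA, CA12, PRSS23 and PDZK1 lie above the lines at their GC content, whereas TPBG, CTSD and NRIP1 lie below.

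RARA and IGFBP4 are close neighbours on chromosome 17, with TOP2A, the mitotic DNA topoisomerase, between them. TOP2A (40388516 to 40417950, minus strand) measured 154, 177 and 148 TPM against 245 and 256 TPM. It was called lower (log2 fold change -0.65, limma adjusted p = 0.0218). With the GC and length trend taken out, TOP2A was at -0.30 and not called (limma adjusted p = 0.0503). RARA, on one side of TOP2A, had a positive log2 fold change. IGFBP4, on the other side, had a level near 0 TPM and was not tested for a change. CDC6, which lies on the far side of RARA and encodes a DNA replication licensing factor, had a log2 fold change of -0.10 (adjusted p = 0.414), and WIPF2 next to it -0.31 (adjusted p = 0.212). RARA-AS1, on the opposite strand within RARA, measured 0.631 to 1.11 TPM in all libraries.

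A wider set held 52 other genes known to be induced by estrogen. Of these, 39 averaged at least 1 TPM, and 6 were called lower, 2 higher and 31 not called, with a median log2 fold change of -0.11, beside 0.15 for the members and 0.0014 for all genes. Over all genes 4.12% were called higher and 5.68% lower. The difference between the sets was not tested. The other 13, TFF1, PGR and CXCL12 among them, averaged under 1 TPM. RBBP8, which encodes the DNA end resection factor CtIP, fell from 78.7 ± 5.30 (SD, n = 2) to 28.2 ± 1.00 TPM (SD, n = 3), and its log2 fold change was -1.45 (limma adjusted p = 0.0048). The log2 fold changes of the other falls were -0.74 for CCND1 (cyclin D1), -0.80 for TIPARP (a mono-ADP-ribosyltransferase), -0.65 for UGCG (glucosylceramide synthase), -0.81 for SLC19A2 (a thiamine transporter) and -0.83 for ELOVL2 (a fatty acid elongase). CELSR1, an adhesion receptor of the cadherin superfamily, rose by 0.46 on the log2 scale (limma adjusted p = 0.0398). GREB1, named after its values were seen as one of the best known targets of ESR1, measured 5.03 ± 0.747 against 5.25 ± 1.17 TPM (SD, n = 3 and 2).

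Of the 6 genes called lower in that wider set, 5 lay in the lowest GC bin, and the 2 called higher lay in the highest 2 bins. With the GC and length trend taken out, 5 of the 6, all but ELOVL2, were still called lower, and 0 were called higher, with CELSR1 at a log2 fold change of 0.26. RET, named after its values were seen, was called lower only after the removal (-0.57, limma adjusted p = 0.0375, from -0.42, adjusted p = 0.0604). The count called lower was thus 6 there too. The count called lower was 6 without sh-LINC00958 replicate 2, but 1 without replicate 1, 2 without replicate 3, 1 when replicate 1 of sh-NC was dropped and 0 when its replicate 2 was, and in those last 4 fits 0 were called higher.

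**Figure D4:**
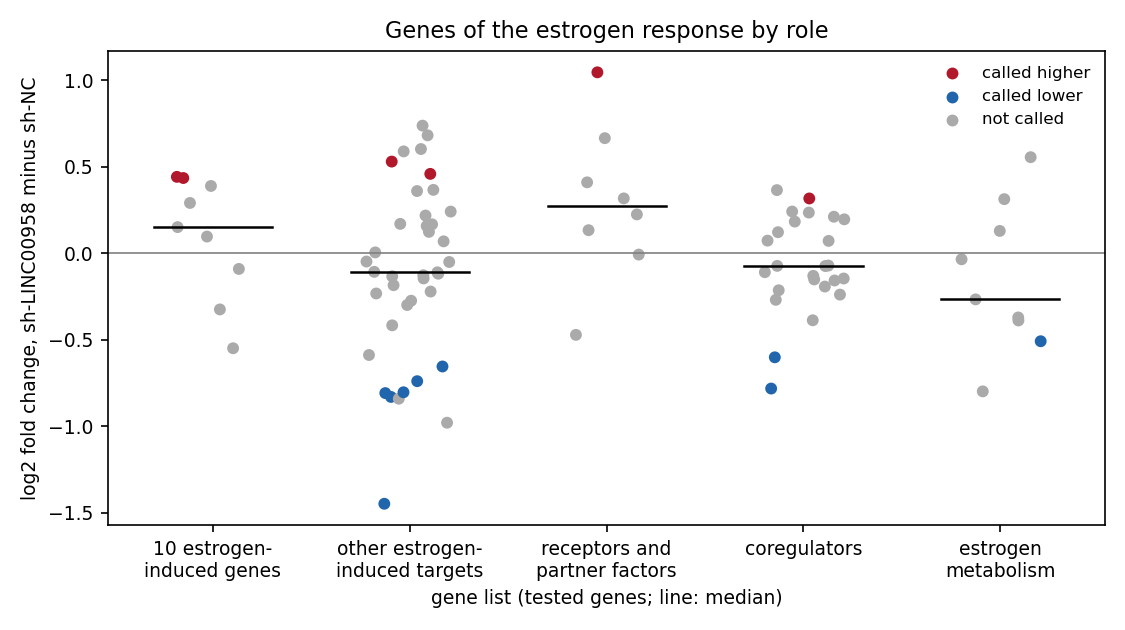
Each point is the log2 fold change of 1 tested gene in the 10 estrogen-induced genes, the other estrogen-induced targets, the receptors and partner factors, the coregulators and the estrogen metabolism genes; red and blue points were called higher and lower by limma, grey points were not called, and lines are medians. The lowest point is RBBP8 at -1.45 and the highest is ESRRA at 1.05.

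Among 14 receptors and partner transcription factors, 8 were tested, 1 was called higher and 0 lower, a share of 12.5% beside 9.80% of all genes tested. ESRRA, an orphan receptor of the estrogen-related family that regulates mitochondrial genes, rose from 21.3 ± 1.75 (SD, n = 2) to 45.01 ± 3.32 TPM (SD, n = 3), or by 1.05 on the log2 scale (limma adjusted p = 0.0103), and was also called with the GC and length trend taken out (0.85, adjusted p = 0.0136). FOXA1, a pioneer factor that opens chromatin for ESR1, measured 5.60, 6.12 and 6.19 TPM against 10.4 and 7.17 TPM (log2 fold change -0.47, adjusted p = 0.135). TFAP2C (0.41), GATA2 (0.32), ESRRB (0.67) and ESR2 were not called. GATA3, a partner of ESR1 in breast cells, was listed at 0 in 4 of 5 libraries.

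All 25 coregulators were tested, and 1 was called higher, 2 lower and 22 not called, with a median log2 fold change of -0.07. The share called was 12%, near the 9.80% over all genes tested. HDAC1, a histone deacetylase, rose from 159 ± 4.4995 (SD, n = 2) to 198 ± 1.68 TPM (SD, n = 3; log2 fold change 0.32, limma adjusted p = 0.0400). TBL1XR1, a subunit of the NCOR and SMRT corepressor complexes, fell (-0.78, adjusted p = 0.0379), and so did LCOR, a ligand-dependent corepressor (-0.60, adjusted p = 0.0446). PRMT1 (0.37), DDX17 (-0.27) and NCOA2 (-0.39) did not pass. With the GC and length trend taken out, 0 of the 25 were called, and 0 also with any library but sh-LINC00958 replicate 2 left out. Of 12 genes of estrogen metabolism 9 were tested and 1 was called (11.1%, beside the same 9.80%). This gene, HSD17B12, which encodes a hydroxysteroid dehydrogenase that also serves fatty acid elongation, fell (-0.51, limma adjusted p = 0.0415; -0.26 and not called after that removal). The log2 fold changes of HSD17B4 (-0.39), CYP1B1 (0.56), HSD17B7 (-0.27) and STS (-0.37) did not pass.

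**Figure D5:**
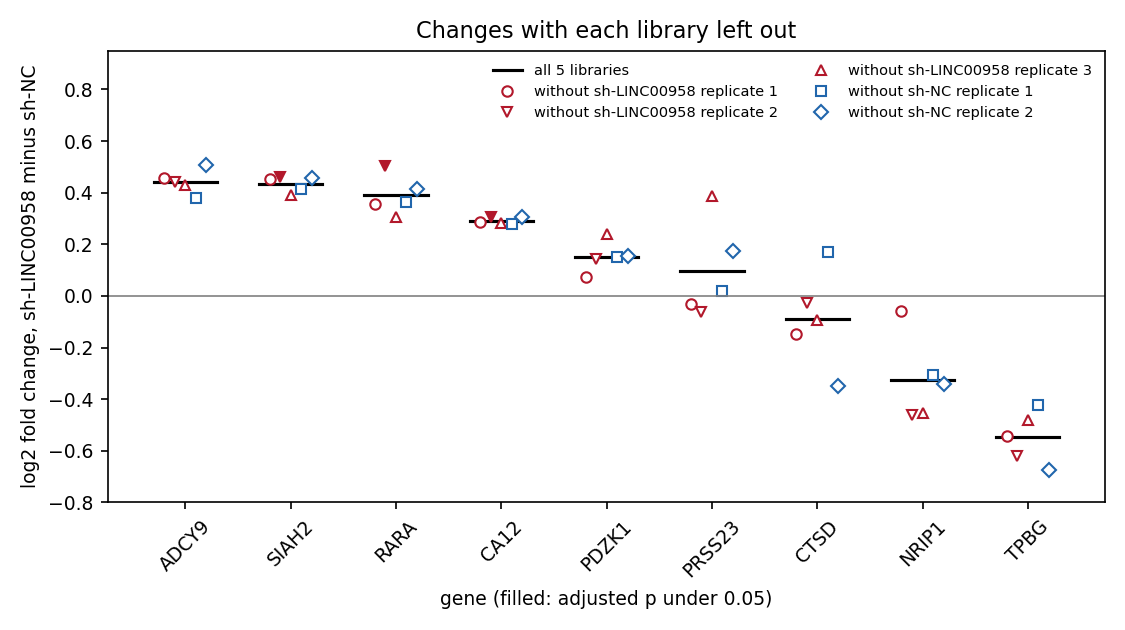
For each of the 9 tested genes, the black line is the log2 fold change with all 5 libraries and the markers are the values with 1 library left out, filled where the limma adjusted p was under 0.05. ADCY9, SIAH2, RARA, CA12, PDZK1, NRIP1 and TPBG keep their sign in all 5 fits, PRSS23 and CTSD do not, and the filled markers of SIAH2, RARA and CA12 all belong to the fit without sh-LINC00958 replicate 2.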

How the data were processed

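Gene expression in 5 RNA-seq libraries was read from the authors' deposited table of TPM values, 1 row for each of 58174 genes. Per the submitters' processing notes, the build was GRCh38 and the tools included HISAT2 2.0 and StringTie 1.3.3b, beside Trimmomatic 0.36 and FastQC 0.11.2; per the labels' protocols, libraries were made from 1 µg of total RNA. TPM keeps no depth, so no counting intervals are given, and the number of libraries limits the precision. Members were matched by symbol, and samples were grouped by their titles. From the TPM, log2(TPM + 1) was fitted with limma 3.58.1 in R 4.3.3 (eBayes with trend, group as the only term, two-sided) over the 17049 genes with a mean of at least 1 TPM, and p-values were adjusted by Benjamini-Hochberg over all of them. The pseudocount understates the change of low genes. The fit was tested on simulated data. GC content and exon length came from GENCODE release 29; their trend was removed from each library with natural splines of 5 degrees of freedom, leaving out 50 tested genes without annotation. Promoter windows came from RefSeq (GRCh38.p14). The genes named are the 10 members, LINC00958, ESR1, ESR2, GPER1, PGR, the 6 tested genes with the smallest p and every called gene of each pathway list, tested genes within 100 kb of RARA or IGFBP4, and overlapping genes or copies; of these, the neighbours and overlapping genes that bear on a member are given, and a few genes that the rule names are not reported here. The members and lists were chosen with earlier results of these data known. Alternatives changed the pseudocount, filter, scaling, test, GC and length trend, pairing and libraries.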

Additional observations from a re-analysis of the deposited data

How the results depend on the processing

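The log2 fold changes of CA12, SIAH2, ADCY9, RARA, PDZK1 and TPBG kept their sign in every alternative run that fitted them. PDZK1 was fitted in 15 of the 16, as it did not pass the filter of at least 5 TPM. For NRIP1 the value was 0.0149 without the GC and length trend, for PRSS23 leaving out single libraries gave -0.0635 to 0.386 (-0.0318 without sh-LINC00958 replicate 1), and for CTSD -0.349 to 0.169. Members called higher numbered 0 with no filter, without the mean-variance trend and without the GC and length trend, and 0 to 3 with single libraries left out. All genes called higher and lower numbered 207 and 269 with no filter, 371 and 518 without the mean-variance trend, 359 and 412 without the GC and length trend, and 10 to 905 and 6 to 1491 with single libraries left out. Wider targets called higher numbered 0 under those 3 settings and 1 under median-ratio scaling, with 0 to 2 for single libraries; those called lower numbered 0 to 6 for single libraries. Coregulators called higher numbered 0 under those 3 settings and 2 with a mean of at least 5 TPM or quantile normalization (0 to 2 for single libraries), and those called lower 0 under those 3 settings (0 to 3). For LINC00958 single libraries gave -1.09 to -0.89. The cause of these shifts was not tested.

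Both groups share replicate numbers 1 and 2, which nothing in the labels ties to a pair. The deviations of same-numbered libraries from their group means correlated at 0.00131 and 0.0497 across genes. The deviations of 2 controls mirror each other, so the values for unlike numbers were -0.00131 and -0.0497. For sh-LINC00958 replicate 3, which has no same-numbered control, the value with sh-NC replicate 1 was 0.0483. These values therefore cannot tell whether the numbers mark pairs. Replicate 3 exists only in sh-LINC00958, so a term for each replicate number (the replicate block) leaves that library out of the group comparison. The log2 fold changes with the block therefore equal those without that library, 0.283 for CA12 and -0.921 for LINC00958 in both. Pairing alone was not tested. With the replicate block, and with the block and the GC and length trend removed, 0 members were called higher, 0 wider targets were called in either direction and 0 coregulators were called. Over all genes the replicate block gave 0 called higher and 2 lower, and 0 and 0 with the trend removed too. The replicate block gave LINC00958 -0.92 (limma adjusted p = 0.104), and -0.96 (adjusted p = 0.151) with the trend removed. Without sequencing depth, the low values of IGFBP4 and PDZK1 have no counting error attached.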
